A study of Rattus norvegicus with 48 samples.

Results

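The genes described here are 9 genes of melanin synthesis and the melanosome, grouped by function. They are Tyr, Tyrp1, Dct, Pmel, Mlana, Slc45a2, Oca2, Slc24a5 and Gpr143, and were chosen with earlier results of these data known. Of these 9, 8 were analysed in both tissues, among the 32883 genes of each count table, and Dct was not analysed here. All 8 passed the filter on low counts in both tissues. RNA of the posterior eye and of the retina was sequenced from 24 female Long-Evans rats, a pigmented strain, giving 48 libraries. The 4 groups of 6 animals were aged rats with ovariectomy, aged rats with sham surgery, young rats with ovariectomy and young rats with sham surgery. Ovariectomy, OVX, removes the ovaries, the main source of circulating oestrogen, and sham surgery leaves them in place. Aged rats, which the submitters describe as middle-aged, had reached 9 to 10 months, and young rats 3 to 4 months. All animals were female and all had surgery.

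Melanin is made inside melanosomes, organelles related to lysosomes. Tyrosinase, encoded by Tyr, starts the pathway by oxidising tyrosine, and Tyrp1 and Dct act on later intermediates. Pmel forms the fibrils on which pigment is laid down, and Mlana is a partner of Pmel in the early melanosome. Oca2, Slc45a2 and Slc24a5 are membrane transport proteins that set the ion balance and pH of the organelle, and Gpr143 is a receptor on its membrane that limits melanosome size. Loss of several of these genes causes albinism. The eye has separate pigmented cell lineages: melanocytes of the choroid and iris, which come from the neural crest, and the pigment epithelium behind the retina, which comes from the optic cup. The neural retina itself makes no melanin.

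Posterior eye libraries held 11470945 to 22971367 counts each, and retina libraries 12916146 to 30737547. Levels are given in counts-per-million units (CPM) after TMM scaling of the libraries, so a level is a share of a library's RNA. They are not corrected for gene length, and levels of different genes are not compared. The labels were checked against defining markers on the scale of a fit over both tissues (mean ± SD, n = 24 animals). All 11 tested rod markers were lower in the posterior eye than in the retina, with a median log2 fold change of -3.18, and passed the edgeR test. Rpe65, the isomerase of the pigment epithelium, was at 307.1 ± 96.45 CPM in the posterior eye against 20.48 ± 11.06 CPM in the retina. Sox10, a neural crest transcription factor of melanocytes and Schwann cells, was at 50.52 ± 13.08 CPM in the posterior eye against 1.14 ± 0.58 CPM in the retina. Pax3, another transcription factor of melanocytes, had 9 counts in all over the 24 retina libraries.

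All 8 melanosome genes were higher in the posterior eye than in the retina, in 24 of 24 animals each. The size of the difference fell into groups by gene. Tyr, Mlana and Pmel differed by the largest factors of the 8, Oca2, Tyrp1 and Gpr143 by somewhat less, and Slc45a2 and Slc24a5 by the smallest. Tyr averaged 71.45 ± 21.1 CPM in the posterior eye and 0.926 ± 0.736 CPM in the retina, a log2 fold change of 6.33 ± 0.20 (SE). Tyrp1, which acts after tyrosinase, averaged 1332 ± 419.9 CPM in the posterior eye and 34.31 ± 12.32 CPM in the retina, a log2 fold change of 5.29 ± 0.15. The retina thus held 1.3% of the posterior eye level of Tyr and 2.58% of that of Tyrp1.

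The proteins of the early melanosome differed as widely. Pmel averaged 1425 ± 485 CPM in the posterior eye and 23.63 ± 10.24 CPM in the retina, a log2 fold change of 5.93 ± 0.17. Mlana averaged 91.69 ± 26.66 CPM in the posterior eye and 1.35 ± 0.79 CPM in the retina, a log2 fold change of 6.16 ± 0.15. For both genes the retinal level was under 2% of that of the posterior eye, at 1.66% for Pmel and 1.47% for Mlana. Among the transport proteins, Oca2 averaged 29.61 ± 9.86 CPM in the posterior eye and 0.763 ± 0.366 CPM in the retina, a log2 fold change of 5.30 ± 0.17. Slc45a2 averaged 67.57 ± 19.53 CPM in the posterior eye and 6.85 ± 1.43 CPM in the retina, a log2 fold change of 3.30 ± 0.11. Slc24a5 averaged 76.33 ± 20.24 CPM in the posterior eye and 20.19 ± 2.07 CPM in the retina, a log2 fold change of 1.91 ± 0.09. Retinal Slc45a2 was therefore at 10.1% and retinal Slc24a5 at 26.5% of the posterior eye level, well above the shares of the other 6 genes. The receptor Gpr143 averaged 25.92 ± 8.14 CPM in the posterior eye and 0.929 ± 0.354 CPM in the retina, a log2 fold change of 4.79 ± 0.16, which put the retina at 3.58%.

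All 8 of these differences passed edgeR's quasi-likelihood test, with a largest adjusted p of 4.37e-24 for Slc24a5. The call by itself sets the genes apart little, because 93% of the 17153 genes tested passed in one direction or the other. The sizes did differ from the bulk of genes: the median absolute log2 fold change over all genes was 1.02, 20% of genes were higher in the posterior eye by more than Slc24a5, 11.9% by more than Slc45a2 and 3.84% by more than Tyr. In bulk tissue, fewer cells of a type and less RNA per cell cannot be told apart. Of the pigment epithelium markers, retinal Rpe65 stood at 6.67% of its posterior eye level, Rgr at 5.84% and Ttr at 5.35%. Best1 of that list stood at 86.7%. Scaled within each tissue, Rlbp1 of that list averaged 448.6 CPM in the retina and 272 CPM in the posterior eye. Rrh averaged 74.59 CPM in the retina and 81.6 CPM in the posterior eye. Of the melanocyte markers, retinal Sox10 stood at 2.26%, Ednrb at 12.1% and Kit at 30.7%.

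Slc24a5 may share reads with another gene. In the RefSeq annotation of GRCr8, a later build than the one the reads were aligned to, it overlaps Myef2, and the library protocol describes no step that marks strand, so reads of the shared stretch cannot be assigned to one gene with certainty. Myef2 had the opposite distribution, at 23.67 ± 5.92 CPM in the posterior eye against 70.4 ± 4.78 CPM in the retina, and was higher in the posterior eye in 0 of 24 animals. Its part in the retinal Slc24a5 counts was not tested. Pmel overlaps Cdk2 and Dgka in the same annotation.

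**Figure D1:**
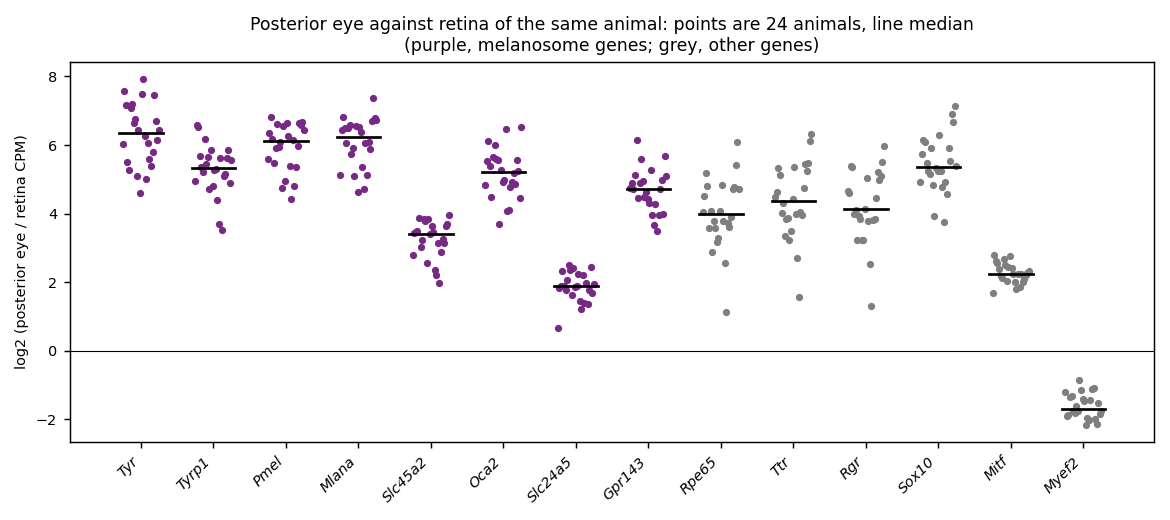
Log2 ratio of the posterior eye level to the retina level in each of 24 animals, for the 8 melanosome genes in purple and 6 other genes in grey, with the median as a line. Each melanosome gene lies above 0 in 24 of 24 animals, Slc24a5 lowest of them with a median of 1.89, while Myef2 lies below 0 in each animal.

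Other genes of the melanosome pathway, listed by function, showed a mixed difference between the tissues. Over all 17153 genes tested, 8197 were called higher and 7752 lower in the posterior eye, so counts of calls by themselves set these lists apart little. Of 6 genes of melanosome transport, 4 were higher and 2 lower in the posterior eye. Rab27a, the GTPase that marks melanosomes for transport, was higher by 3.25 ± 0.06 on the log2 scale, and Mlph, its linker to the myosin motor, by 4.92 ± 0.12. Of 17 tested genes of the biogenesis of melanosomes and related organelles, 12 were higher and 5 lower, with a median log2 fold change of 0.48. Rab38, a GTPase that delivers melanosomal enzymes, was higher by 6.00 ± 0.14, whereas Hps1, a subunit of the BLOC-3 complex, was higher by 2.00 ± 0.06. Of 7 transcription factors of pigment cells, 6 were higher and 1 lower, among them Mitf, the factor that drives many melanosome genes, by 2.29 ± 0.06 and Sox10 by 5.53 ± 0.13. Of 8 signalling genes, 5 were higher and 3 lower, among them Edn3, a ligand that promotes melanocyte development, by 6.87 ± 0.20, and Kitlg, the ligand of the receptor Kit, by 2.28 ± 0.08. Of 5 other membrane proteins of the melanosome, 4 were higher and 1 lower, and Gpnmb, a relative of Pmel, was higher by 5.81 ± 0.15. All genes counted here as higher or lower passed at an adjusted p of 9.99e-05 or less in the biogenesis list and of 0.000116 or less in the others.

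Within the posterior eye the 8 genes moved together from animal to animal. Across 24 libraries, the 28 pairs of members had Pearson correlations of log2 CPM between 0.713 and 0.974, with a median of 0.922. The lowest pair was Mlana with Gpr143. These values share library and depth and are a description. In 8 of 8 genes the highest library was that of young OVX animal 8, at 2460 CPM for Pmel, 2053 CPM for Tyrp1 and 117.6 CPM for Tyr. In 6 of 8 genes the lowest library was that of young sham animal 1, at 609.2 CPM for Pmel, 550.2 CPM for Tyrp1 and 25.38 CPM for Tyr. That library was also the shallowest of the tissue, and its pigment epithelium level was not low, with a mean log2 CPM of 7.57 over 10 markers against 7.46 for its group. The highest library exceeded the lowest by 3.19-fold for Slc45a2, the narrowest range, and by 4.94-fold for Gpr143, the widest.

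The shared variation was related to the lists of melanocyte, pigment epithelium and rod markers, and among these it followed melanocyte markers most closely. Relations with the endothelial, stromal and Schwann cell lists were not computed, so the pattern was not shown to be particular to melanocytes. Of the tested endothelial markers, Cdh5, Plvap, Emcn, Tie1 and Vwf were also highest in young OVX animal 8, and Kdr in young OVX animal 10. The melanocyte list held Sox10, Kit, Ednrb, Pax3, Mcoln3 and Mc1r, of which the first 5 were tested, and its level in a library is the mean log2 CPM of the tested genes. Over 24 posterior eye libraries, Pearson's r between a member and this level ran from 0.817 for Gpr143 to 0.954 for Pmel, and Spearman's rho from 0.837 for Tyr to 0.976 for Pmel. All 8 had a permutation p of 1e-05, the smallest that 100000 permutations can give, and an adjusted p of 6e-05 over the 48 relations computed. The relations held without the 2 libraries farthest from the median, at 0.775 to 0.945, and for deviations from the 4 group means, at 0.792 to 0.957, where all 8 passed again.

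With the 10 pigment epithelium markers, r ran from 0.399 for Tyr to 0.587 for Slc45a2 and rho from 0.376 for Tyr to 0.564 for Gpr143, and 7 of 8 genes had an adjusted permutation p under 0.05. These relations rested on few libraries. Without aged sham animals 15 and 16, the 2 farthest from the median, r was 0.196 to 0.371, and for deviations from group means 4 of 8 passed. With the level of 11 rod markers, r ran from -0.178 for Pmel to 0.0828 for Gpr143, and none of 8 passed in the permutation test, 0 of them at an unadjusted p under 0.05.

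**Figure D2:**
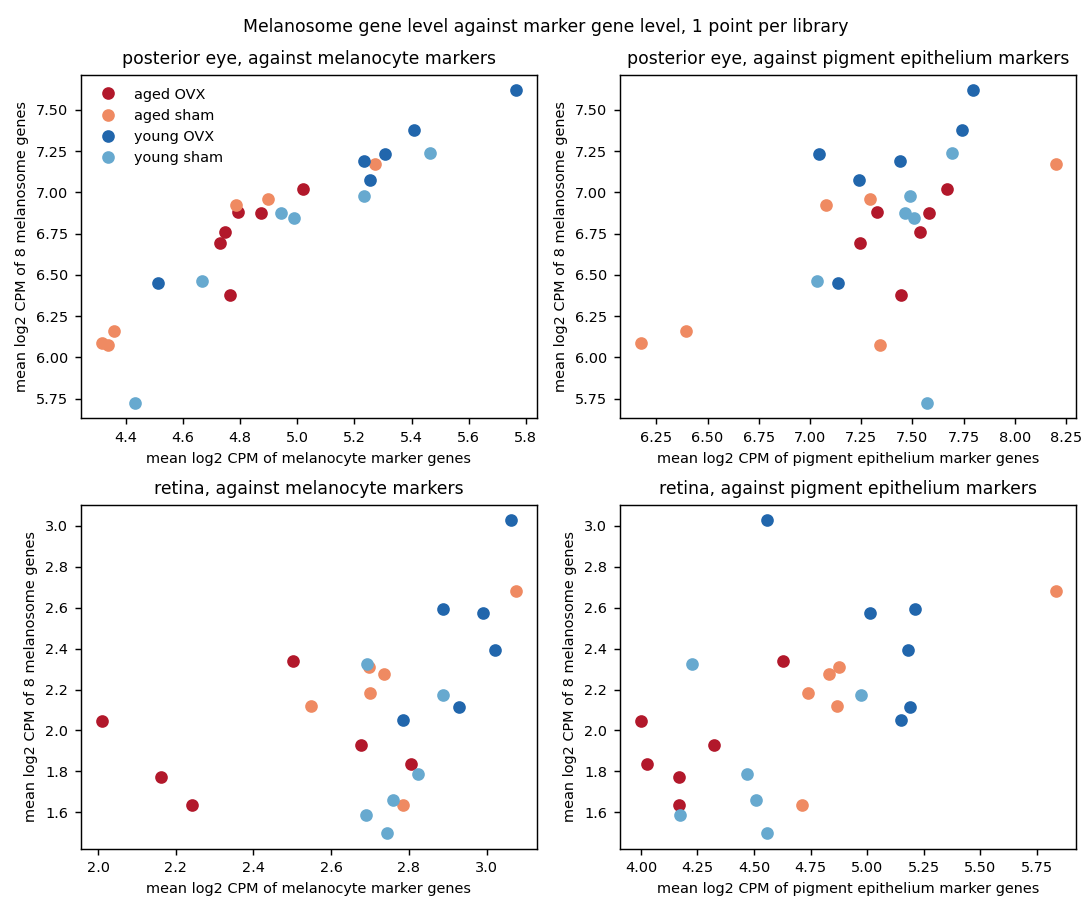
Mean log2 CPM of the 8 melanosome genes in each library (vertical axis) against the mean log2 CPM of melanocyte markers (left) and of pigment epithelium markers (right), in the posterior eye (top) and the retina (bottom), coloured by group. In the posterior eye the points lie along a line against melanocyte markers, where r for single genes was 0.817 to 0.954, and scatter against pigment epithelium markers.

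The genes whose posterior eye pattern was most like the mean of the 8 members were sought among 14185 tested genes with assigned symbols. The closest was Gpnmb, with r of 0.958, and 0.952 for deviations from group means over 24 libraries. Next came Cd83 at 0.943, Tmem176b and Cybrd1 at 0.937 each, Cd63 at 0.936, Edn3 at 0.932, Lhfpl2 at 0.931, Pax3 and Nid2 at 0.926 each, and Dpp7 at 0.92. Cd63 encodes a membrane protein of lysosomes and melanosomes. Mitf stood at rank 13 with r of 0.91, Ednrb, the endothelin receptor of melanocytes, at rank 26 with 0.896, and Sox10 at rank 66 with 0.857. Kit, the stem cell factor receptor, stood at rank 5139 with 0.129, unlike the other melanocyte markers. Among pigment epithelium genes, Ttr was at rank 1182 with 0.548 and Rpe65 at rank 1611 with 0.475.

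Promoter sequence was read for 7 of the 9 genes from RefSeq on GRCr8, as 300 bases from 250 before to 50 after each gene's start. Slc45a2 and Slc24a5 had no entry. The motif TCATGTG, which contains the E-box CATGTG and is the core of the M-box that MITF is known to bind in human and mouse melanosome genes, was searched on both strands. It was present in 5 of the 7, those of Tyr, Tyrp1, Dct, Mlana and Gpr143, and in 3.56% of all 33469 promoters of the same length. The shorter CATGTG was present in the same 5 genes and in 14% of all promoters. Its letters were not found in the windows of Pmel and Oca2, which draws nothing about the factor. The windows of Tyr, Tyrp1, Mlana and Gpr143 are shown, to let the letters be read beside the levels of these genes. That of Dct is not shown, since its level was not analysed here. A match of letters is a description and not a measured binding site. Each line gives the gene strand 5′ to 3′ with the motif, or its reverse complement CACATGA, in capitals.
Tyr, chr1:150622952-150622998, minus strand, 121 bases before the start: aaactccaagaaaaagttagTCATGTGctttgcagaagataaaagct
Tyrp1, chr5:100327037-100327083, plus strand, 68 bases before the start: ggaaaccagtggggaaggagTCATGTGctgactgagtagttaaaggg
Mlana, chr1:236882851-236882897, plus strand, 204 bases before the start: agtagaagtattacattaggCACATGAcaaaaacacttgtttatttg
Gpr143, chrX:25498555-25498601, plus strand, 26 bases before the start: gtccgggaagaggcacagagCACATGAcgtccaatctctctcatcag
In Tyr and Tyrp1 the motif reads along the gene's strand, and in Mlana and Gpr143 on the opposite strand.

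Between the surgery groups, no melanosome gene passed the test in the posterior eye. In young rats all 8 were higher after OVX on average, by 0.24 to 0.60 on the log2 scale, within the spread between animals. Tyr was at 59.38 CPM in the lowest, 83.34 in the median and 117.6 CPM in the highest young OVX library, against 25.38, 66.02 and 78.27 CPM in young sham libraries. Pmel was at 930.5, 1895 and 2460 CPM in young OVX libraries, against 609.2, 1374 and 1904 CPM in young sham libraries. Oca2 was at 19.41, 39.71 and 49.18 CPM in young OVX libraries, against 11.11, 27.38 and 38.07 CPM in young sham libraries. For each of the 8 genes the groups overlapped, and 4 or 5 of 6 young OVX libraries lay above the median of young sham.

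The fitted log2 fold changes of young OVX against young sham were 0.60 ± 0.24 (SE, adjusted p = 0.725) for Oca2 and 0.51 ± 0.23 (adjusted p = 0.754) for Mlana by edgeR's quasi-likelihood test, the pair with an unadjusted p under 0.05. Those of the other 6 genes ran from 0.24 for Gpr143 to 0.49 for Pmel. The median over the 8 genes was 0.45, against a median of -0.01 over all 16401 genes tested, of which 47.2% were above 0. By edgeR 0 of 8 genes were called, by DESeq2 and by limma-voom likewise 0, and 0.0061% of all genes were called, a single gene. Without young sham animal 1, the low library described above, the median of the 8 was 0.30, which moved it by 1.5-fold.

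Melanocyte markers lay on the same side as these genes, as did most markers of several other cell types. All 5 tested melanocyte markers were above 0 in young OVX against young sham, from 0.008 to 0.38, with a median log2 fold change of 0.37 and 0 called. Their summed level ran from 171.9 to 393.6 CPM in young OVX libraries against 161.3 to 327.5 CPM in young sham libraries. Of 10 pigment epithelium markers 2 were above 0, with a median of -0.04, and their summed level ran from 2937 to 5192 CPM in young OVX against 2946 to 4583 CPM in young sham. With the melanocyte level as a covariate the median of the 8 members was 0.14, and with the pigment epithelium level it was 0.47. The members followed the melanocyte level at r of 0.817 to 0.954 over 24 libraries. This covariate, here and later, therefore removes variation that they share whatever its cause, and no cause can be read from it. Markers of neighbouring tissue also differed between these groups: 11 of 11 lens markers were above 0, with summed levels of 71.93 to 3408 CPM in young OVX against 175.9 to 2192 CPM in young sham, and 4 of 4 markers of sebaceous and meibomian glands were below 0, with 2.34 to 122.7 CPM in young OVX against 1.21 to 1968 CPM in young sham. The 11 tested rod markers were all below 0, with 99.35 to 34990 CPM in young OVX against 743.2 to 32330 CPM in young sham. Above 0 were also 6 of 6 endothelial markers (median 0.17), 4 of 5 Schwann cell markers (0.34), 5 of 6 stromal markers (0.11) and 2 of 3 skeletal muscle markers (0.0008). None of these markers was called, and the part of lens, gland and these other tissues in the result was not tested.

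In aged rats the posterior eye values after OVX were closer to those of sham. Tyr was at 52.7, 61.74 and 85.17 CPM in the lowest, median and highest aged OVX libraries, against 37.27, 61.58 and 84.93 CPM in aged sham libraries. Pmel was at 1104, 1208 and 1501 CPM in aged OVX libraries, against 729.8, 1055 and 1648 CPM in aged sham libraries. The aged sham libraries spread more widely than the aged OVX libraries, with an SD of 384 against 149 CPM for Pmel, and their values lay in an upper and a lower set of 3 animals each for Tyr. The fitted log2 fold changes ran from -0.04 for Gpr143 to 0.34 for Mlana, with a median of 0.15, against 0.00 over all genes. The median rested on single libraries, at 0.05 without aged sham animal 15 and 0.27 without aged sham animal 13, and it moved by over 1.5-fold without aged sham animals 16 or 18 as well. Pigment epithelium markers were above 0 in 10 of 10, with a median of 0.22 and summed levels of 3594 to 4995 CPM in aged OVX libraries against 1618 to 7475 CPM in aged sham libraries, and with their level as a covariate the median of the members was -0.04. The 4 gland markers were all below 0, with a median of -6.44, an unadjusted p under 0.05 in each and 0 called, at 2.31 to 9.57 CPM in aged OVX libraries against 1.36 to 1688 CPM in aged sham libraries, and the part of gland tissue was not tested. None of 8 genes was called by edgeR, DESeq2 or limma-voom, 0 had an unadjusted p under 0.05 in edgeR, and 0% of all genes were called.

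Between the ages, no melanosome gene passed the test in the posterior eye. In aged sham against young sham all 8 posterior eye genes were slightly below 0, from -0.24 for Gpr143 to -0.01 for Tyr, with a median of -0.13. These signs were not stable. Tyr was above 0 under other scalings, 5 of the 8 genes were above 0 when adjusted for the level of pigment epithelium markers, and 8 of 8 when adjusted for melanocyte markers, where the median was 0.21. Leaving out 1 library gave medians from -0.26, without aged sham animal 13, to -0.01, without young sham animal 4, and the median also moved by over 1.5-fold without young sham animals 1, 2 or 5 or aged sham animals 14, 15, 16 or 18. Beside them, 10 of 10 pigment epithelium markers (median -0.25), 5 of 5 melanocyte markers (-0.23) and 11 of 11 lens markers (-1.27) were below 0, 0 of them called. In aged OVX against young OVX all 8 were below 0, with a median of -0.39, from -0.58 ± 0.24 for Oca2 (adjusted p = 0.421, edgeR) to -0.25 ± 0.23 for Mlana. With the melanocyte level as a covariate 7 of the 8 genes were above 0, with a median of 0.10. Beside the members, 5 of 5 melanocyte markers were below 0 with a median of -0.46, at summed levels of 200 to 253 CPM in aged OVX libraries against 171.9 to 393.6 CPM in young OVX libraries, and 11 of 11 lens markers with a median of -2.26, at 88.78 to 501.1 CPM in aged OVX libraries against 71.93 to 3408 CPM in young OVX libraries. The tested stromal, endothelial and Schwann cell markers were also all below 0, with medians of -0.27, -0.31 and -0.34, and no marker of these lists was called, 10 of the lens markers having an unadjusted p under 0.05. The part of lens and stromal tissue in the result was not tested. For 6 of the 8 genes each of the 6 aged OVX libraries lay below the median of young OVX, though the groups overlapped. Oca2 was at 21.23, 27.01 and 28.06 CPM in aged OVX libraries, against 19.41, 39.71 and 49.18 CPM in young OVX libraries. Of the 8 genes, 0 had an unadjusted p under 0.05 with age in sham rats and 1, Oca2, in OVX rats, and 0% of all genes were called in each of these comparisons.

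The interaction asks whether the OVX difference itself changed with age, and takes the aged difference minus the young one. In the posterior eye all 8 values were below 0, with a median of -0.28, from -0.52 ± 0.34 for Oca2 to -0.17 ± 0.32 for Mlana. The median was -0.16 without aged sham animal 13, and it moved by over 1.5-fold without young OVX animal 8, young sham animal 1 or aged OVX animal 20 as well. With the melanocyte level as a covariate 3 genes were above 0 and the median was -0.07. Lens markers were below 0 in 11 of 11, with a median of -0.92, and pigment epithelium markers above 0 in 10 of 10, with a median of 0.30, 0 called in each list. None was called by edgeR, DESeq2 or limma-voom, 0 had an unadjusted p under 0.05, and 0% of all genes were called. The 5 comparisons within a tissue share libraries, so their values are not independent of each other.

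**Figure D3:**
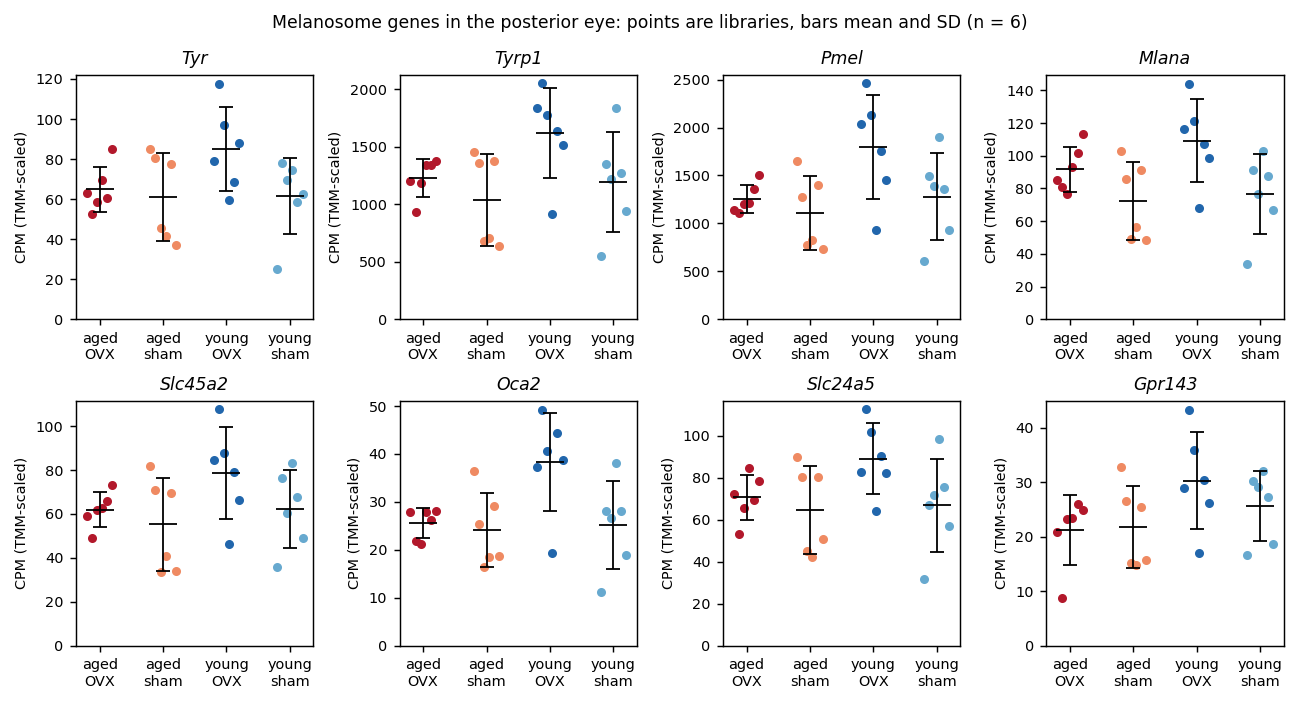
Posterior eye level in CPM of each melanosome gene in the 6 libraries of each group, with mean and SD. Young OVX libraries have the highest mean for each gene, 1795 CPM for Pmel against 1280 CPM in young sham, and the groups overlap in each panel.

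The rest of the pathway in the posterior eye gave no call between groups. In young OVX against young sham, 0 of 17 biogenesis genes, 0 of 5 transport genes, 0 of 5 other membrane proteins, 0 of 7 transcription factors and 0 of 8 signalling genes passed in edgeR, with 1, 1, 1, 0 and 1 of them at an unadjusted p under 0.05. Their median log2 fold changes were -0.00, 0.27, 0.19, 0.16 and 0.04. Mlph, the melanosome linker, had 0.54 ± 0.18 (adjusted p = 0.661, edgeR), and Gpnmb 0.42 ± 0.20 (adjusted p = 0.798). Ap3d1, a subunit of the AP-3 sorting complex, had -0.00 ± 0.11, and Ednrb 0.38 ± 0.25.

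In the retina the melanosome genes were sparse but measurable. Counts per retina library ran from 4 to 59 for Tyr, 8 to 67 for Mlana, 5 to 27 for Oca2 and 4 to 37 for Gpr143. They ran from 269 to 1237 for Tyrp1, 191 to 1080 for Pmel, 73 to 221 for Slc45a2 and 268 to 683 for Slc24a5. Slc24a5 varied least, from 16.83 to 26.05 CPM over 24 libraries, a 1.55-fold range. The members did not move together as they did in the posterior eye, with pairwise correlations of log2 CPM between -0.276 for Slc24a5 with Gpr143 and 0.909 for Pmel with Mlana, and a median of 0.352 over 28 pairs.

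In young rats the retinal level of all 8 genes was higher after OVX on average, and none passed the edgeR test. Mlana was at 1.14 CPM in the lowest, 2.10 in the median and 4.37 CPM in the highest young OVX library, against 0.662, 0.999 and 1.32 CPM in young sham libraries. Tyrp1 was at 28.07, 38.45 and 60.46 CPM in young OVX libraries, against 14.85, 23.38 and 38.87 CPM in young sham libraries. Pmel was at 20.19, 35.89 and 51.91 CPM in young OVX libraries, against 13.65, 18.41 and 33.09 CPM in young sham libraries. For Mlana, Tyrp1, Pmel, Tyr and Oca2 all 6 young OVX libraries lay above the median of young sham, and for each gene the groups overlapped.

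The log2 fold changes of young OVX against young sham were 1.23 ± 0.29 for Mlana (adjusted p = 0.147), 0.73 ± 0.24 for Tyrp1 (adjusted p = 0.228) and 0.75 ± 0.26 for Pmel (adjusted p = 0.25) by edgeR's quasi-likelihood test. These 3 had an unadjusted p under 0.05. Tyr, Oca2, Gpr143 and Slc45a2 had 0.91 ± 0.50, 0.77 ± 0.39, 0.39 ± 0.31 and 0.26 ± 0.15, and Slc24a5 0.07 ± 0.09. The median over the 8 was 0.74 against -0.00 over 15481 genes tested, 49.7% of them above 0, and edgeR called 0.0194% of all genes. DESeq2 called 1 of the 8, Mlana, at 1.24 ± 0.31 with an adjusted p of 0.0303, and limma-voom 0. What share of all genes DESeq2 called is not given here. With single libraries left out, the edgeR adjusted p of Mlana ran from 0.092 to 0.307. Young OVX animal 12 held the highest library for Mlana and Tyr, and without it the median of the 8 was 0.48, with Mlana at 0.96 and Tyr at 0.38.

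In aged rats the difference ran mostly the other way. Of the 8 genes 6 were below 0 in aged OVX against aged sham, with a median of -0.37 against -0.00 over all genes, and none was called by edgeR, DESeq2 or limma-voom. Pmel was at 13.5, 16.94 and 29 CPM in the lowest, median and highest aged OVX libraries, against 17.55, 21.02 and 42.39 CPM in aged sham libraries. Slc45a2 was at 5.06, 5.68 and 8.39 CPM in aged OVX libraries, against 6.91, 7.88 and 9.82 CPM in aged sham libraries. Slc45a2 was the single gene with an unadjusted p under 0.05, at a log2 fold change of -0.36 ± 0.15 (adjusted p = 0.75, edgeR). Tyr had 0.25 ± 0.53 and Slc24a5 0.07 ± 0.09, the 2 above 0. Of all genes, 0.00646% were called.

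**Figure D4:**
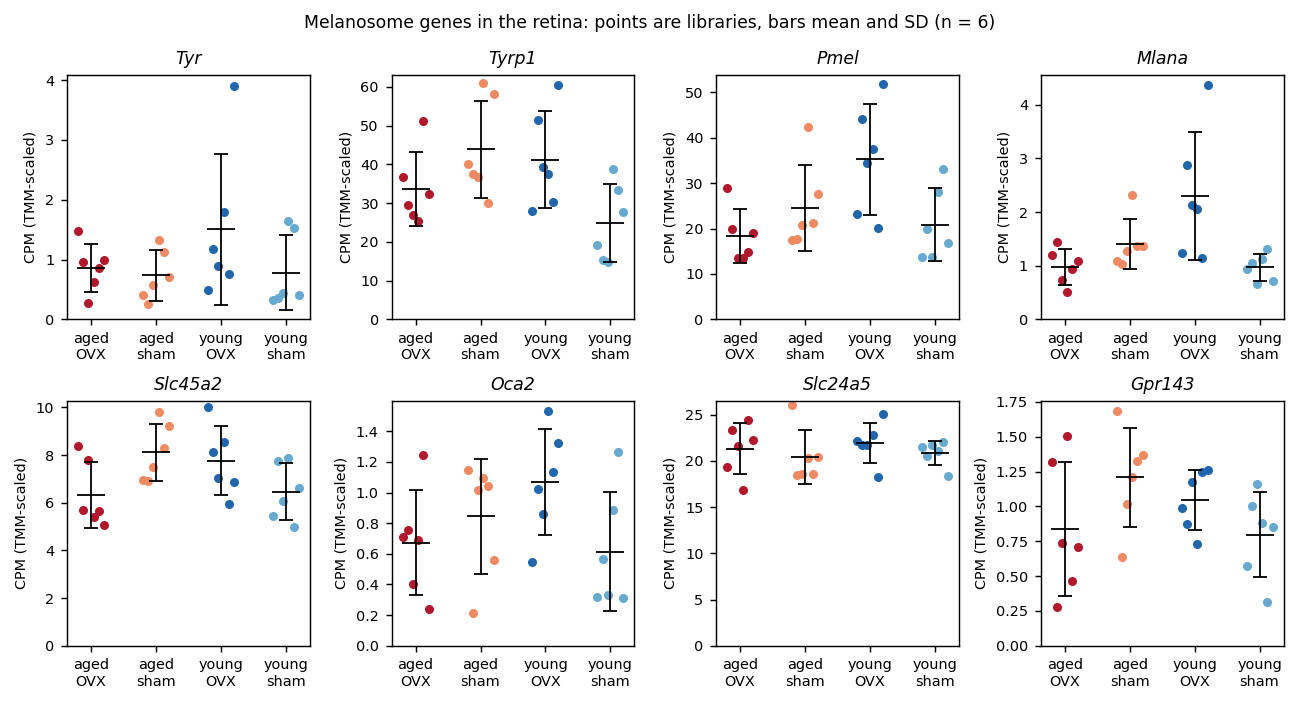
Retina level in CPM of each melanosome gene in the 6 libraries of each group, with mean and SD. Mean Pmel is 18.3 CPM in aged OVX against 24.55 CPM in aged sham, and 35.19 CPM in young OVX against 20.88 CPM in young sham, while Slc24a5 stays between 20.4 and 21.95 CPM in the 4 groups.

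With age in sham rats, 6 of 8 retinal genes were above 0 and 2 below, with a median of 0.38, and none was called by edgeR or limma-voom. Beside them, 10 of 10 pigment epithelium markers were above 0 with a median of 0.70, 7 of them at an unadjusted p under 0.05, at summed levels of 777.8 to 1207 CPM in aged sham retinas against 646 to 860.6 CPM in young sham retinas. All 11 lens markers were below 0 with a median of -1.67, each at an unadjusted p under 0.05, at 3488 to 28570 CPM in aged sham retinas against 5318 to 61990 CPM in young sham retinas. None of either list was called, and the part of lens tissue was not tested. Rlbp1, at a mean of 448.6 CPM over 24 retina libraries, held the largest part of the pigment epithelium sums. Adjusted for the level of pigment epithelium markers, the median of the members was 0.21. DESeq2 called 0, giving no adjusted p for Tyr, Mlana, Oca2 and Gpr143. Tyrp1 was at 30.03, 38.76 and 60.87 CPM in the lowest, median and highest aged sham libraries, against 14.85, 23.38 and 38.87 CPM in young sham libraries, a log2 fold change of 0.82 ± 0.24 (adjusted p = 0.205, edgeR). Slc45a2 had 0.33 ± 0.15 (adjusted p = 0.424), and these 2 had an unadjusted p under 0.05. Of all genes 0.0388% were called. In aged OVX against young OVX all 8 were below 0, with a median of -0.49, and edgeR called 0.0711% of all genes, 0 of them members. Without young OVX animal 12 the median was -0.29. Of 10 pigment epithelium markers 9 were below 0, with a median of -1.02, and 2 passed the edgeR test, Ttr and Rgr. The summed level of the 10 was 589.7 to 658.8 CPM in aged OVX retinas against 674.6 to 936 CPM in young OVX retinas. With the level of these markers as a covariate the median of the members was -0.38. Mlana was at 0.502, 1.01 and 1.44 CPM in aged OVX libraries, against 1.14, 2.10 and 4.37 CPM in young OVX libraries. Its log2 fold change was -1.20 ± 0.30 (adjusted p = 0.122, edgeR), and DESeq2 called it at -1.21 ± 0.31 with an adjusted p of 0.0295, whereas limma-voom did not. What share of all genes DESeq2 called is not given here either. Pmel had -0.93 ± 0.26 (adjusted p = 0.219, edgeR), and these 2 had an unadjusted p under 0.05.

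The retinal interaction of OVX and age was below 0 for all 8 genes, with a median of -0.99 against 0.00 over all genes, and none was called in edgeR, DESeq2 or limma-voom. Mlana had -1.73 ± 0.43 (adjusted p = 0.278), Pmel -1.16 ± 0.37 (adjusted p = 0.585), Tyrp1 -1.11 ± 0.34 (adjusted p = 0.512) and Slc45a2 -0.62 ± 0.21 (adjusted p = 0.613) in edgeR's quasi-likelihood test, the 4 with an unadjusted p under 0.05. Slc24a5 was at -0.01 ± 0.13. Of all genes 0.0452% were called. The interaction was not shown to differ between the tissues: posterior eye minus retina, it was above 0 for 7 of 8 genes with a median of 0.60, 0 of 8 were called, 1, Mlana at 1.56 ± 0.55, had an unadjusted p under 0.05, and 0% of all genes were called in edgeR. The pattern of signs by gene and tissue is shown in the plot of fitted changes.

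**Figure D5:**
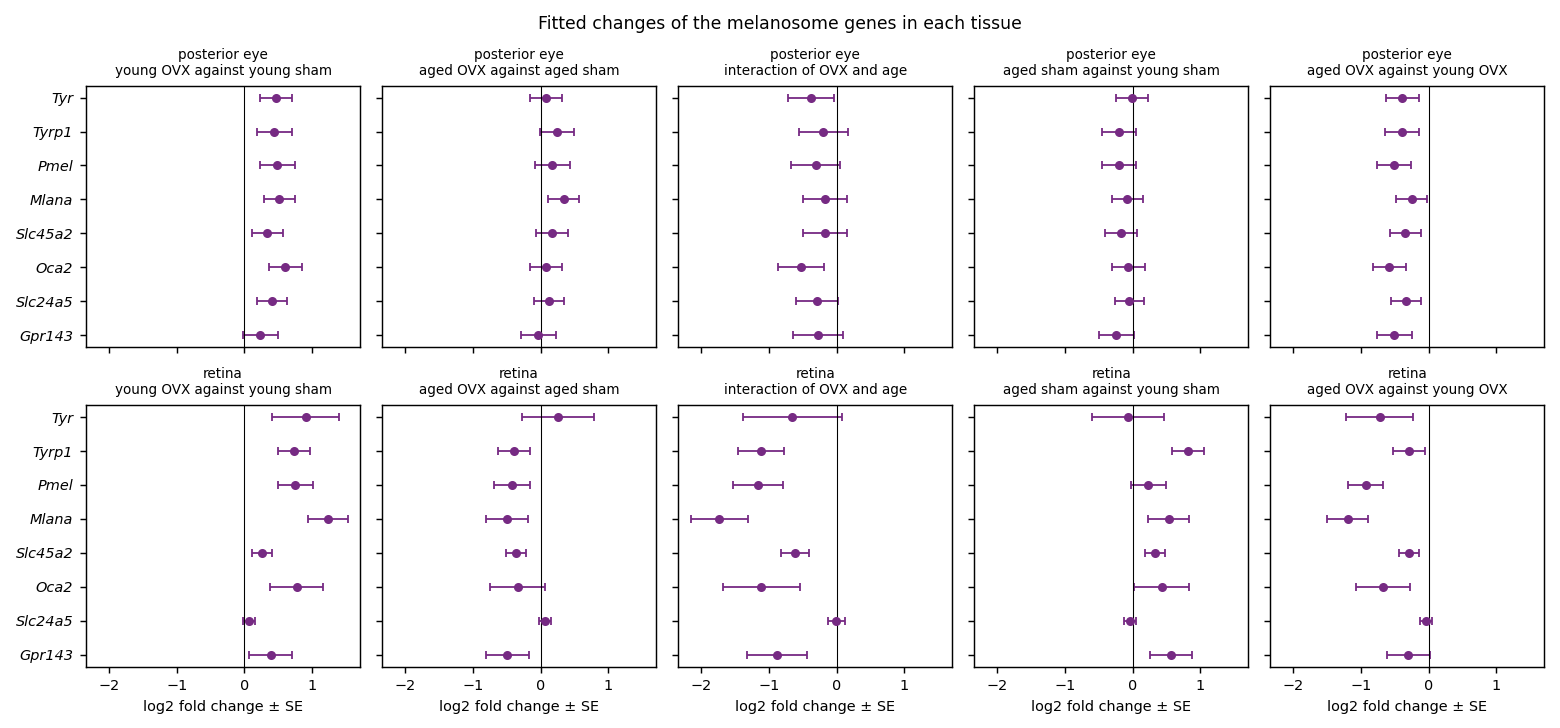
Fitted log2 fold change with SE of each melanosome gene in the 5 comparisons within the posterior eye (top) and within the retina (bottom). The retinal interaction ranges from -1.73 for Mlana to -0.01 for Slc24a5, those of the posterior eye from -0.52 for Oca2 to -0.17 for Mlana, and no gene in any panel passed the edgeR test.

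Markers of the pigment epithelium moved in the retina beside the melanosome genes. Of 10 markers 8 were above 0 in young OVX against young sham, with a median of 0.73, and 9 below 0 in aged OVX against aged sham, with a median of -0.98, 0 called in each. In the interaction 9 of 10 were below 0 with a median of -1.80, and 3 passed the edgeR test: Rgr at -2.36 ± 0.38 (adjusted p = 0.0127), Ttr at -2.42 ± 0.40 (adjusted p = 0.0138) and Rpe65 at -2.09 ± 0.39 (adjusted p = 0.0406). The summed level of the 10 markers was 589.7 to 658.8 CPM in aged OVX retinas against 777.8 to 1207 CPM in aged sham retinas. It was 674.6 to 936 CPM in young OVX retinas against 646 to 860.6 CPM in young sham retinas. Rlbp1 held the largest part of these sums, at 394.8 to 495.5 CPM over 24 libraries, against 6.85 to 58.62 CPM for Rpe65. Whether retinal cells other than the pigment epithelium supplied it was not tested. With the mean log2 CPM of the 10 markers as a covariate, the median interaction of the 8 melanosome genes was -0.53. Their median was then 0.52 in young OVX against young sham and -0.11 in aged OVX against aged sham. Rgr, Ttr and Rpe65, which enter this covariate, were themselves called in the interaction. Here and in the other comparisons, this covariate removes variation shared with these markers whatever its cause, and no cause can be read from it. Lens markers also differed: 11 of 11 were above 0 in aged OVX against aged sham, 0 called, with summed levels of 4688 to 38430 CPM in aged OVX retinas against 3488 to 28570 CPM in aged sham retinas, and their part in the result was not tested.

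Across 24 retina libraries, Pmel, Mlana and Slc45a2 correlated with the pigment epithelium level, at Pearson's r of 0.63, 0.576 and 0.536 and rho of 0.679, 0.68 and 0.509, and passed the permutation test after adjustment over 48 relations. For deviations from the group means r was 0.421, 0.222 and 0.237, and none of the 8 passed, so the relation was not shown within groups. Pmel and Mlana also correlated with the melanocyte list, at 0.667 and 0.666, and at 0.529 and 0.566 within groups. In the retina that list rested on Sox10, Kit and Ednrb, which other retinal cells also express, while Pax3 and Mcoln3 had 9 and 27 counts over all libraries. Tyr correlated with the rod level at -0.577 (rho -0.632). The genes most like the mean of the 8 members in the retina were Bace2, a protease that cleaves PMEL in human melanocytes, with r of 0.822, Tspan10 at 0.75, Sema3c at 0.728, Rfx5 at 0.722, Kcnj13, a potassium channel of the pigment epithelium, at 0.693, Col8a1 at 0.673, Mfrp and Timp3 at 0.664 each, Cavin2 at 0.66 and Gar1 at 0.657. Mitf was not among them, with r of -0.051. For deviations from the group means, r was 0.721 for Bace2, 0.698 for Rfx5, 0.642 for Sema3c and 0.565 for Tspan10. For the rest of those named it was lower, from 0.447 for Cavin2 to 0.545 for Gar1.

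No relation between the tissues of the same animal passed the test. Over 24 animals, r between the posterior eye and the retina ran from -0.0543 for Slc45a2 to 0.333 for Oca2, and rho from -0.00087 for Slc45a2 to 0.317 for Oca2. None of the 8 relations had a permutation p under 0.05, the smallest adjusted p was 0.479, and without the 2 farthest animals r was 0.00295 to 0.185.

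The rest of the pathway was not called between the retina groups either. In young OVX against young sham, 0 of 17 biogenesis genes, 0 of 6 transport genes, 0 of 5 other membrane proteins, 0 of 5 transcription factors and 0 of 7 signalling genes passed in edgeR, with 2, 2, 0, 1 and 2 of them at an unadjusted p under 0.05. Myo5a, the motor that carries melanosomes in melanocytes, had -0.25 ± 0.08 (adjusted p = 0.207, edgeR), and Mitf 0.16 ± 0.09. Myo7a, the myosin that moves melanosomes in the pigment epithelium, was chosen after its values were seen. Its retinal interaction was -2.19 ± 0.43 (adjusted p = 0.052, edgeR), beside 1.10 ± 0.29 in young OVX against young sham and -1.10 ± 0.31 in aged OVX against aged sham.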

How the data were processed

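Per the labels' protocols, full-length cDNA was amplified by the SMART-Seq v4 kit from a small RNA input, without molecular identifiers, and Nextera XT libraries were read from both ends. Tissues were kept at room temperature before extraction. The authors deposited 1 table of raw counts per gene for each tissue. The submitters' processing notes name STAR 2.7.3a, HTSeq, DESeq2 and the build Rnor_6.0; how HTSeq was set and which annotation it used is not given in the sources used here. Each column was mapped to its animal by its label, and 0 columns were left unmapped. Dates stood in place of 25 gene names in the posterior eye data, and these rows were left out of the fit over both tissues.

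From the counts, edgeR 4.0.16 (R 4.3.3) after filterByExpr (16401 posterior eye genes, 15481 retina genes, 17153 for both tissues together), TMM scaling and the quasi-likelihood F test was fitted with 1 mean per group over the 24 libraries of a tissue, and with 8 means over all 48 libraries for the comparison of tissues. Two-sided p-values received a Benjamini-Hochberg adjustment across the whole table, and adjusted values under 0.05 counted as calls. Each SE was derived from the log2 fold change and its F statistic and is approximate. Log2 CPM used a prior count of 2, and tissue ratios per animal a pseudocount of 0.1. Correlations were tested with 100000 permutations and adjusted over 48 relations; the 8 relations between tissues were a separate family, added after the data were seen. Scripts were tested on simulated data.

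Alternatives were DESeq2 1.42.0 as test and as scaling, upper-quartile scaling, no filter, limma-voom (limma 3.58.1), fits on the compared groups alone, marker levels as covariates, each library left out, posterior eye fits without aged OVX animals 22 and 23, whose library numbers break the spacing of the others, and the animal as a block. The labels give both tissues of an animal the same number, so they are paired. As a check, the deviations of an animal's 2 libraries from their group means correlated between -0.0409 and 0.283 over 14773 genes, with 10 of 24 above 0.1.

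Beside the members, the rule named in each pathway list up to 4 genes that passed, by smallest p, and otherwise the 2 with the highest mean CPM, of which a selection is given, together with defining cell markers and the 10 most similar genes in each tissue. Retinal Mitf and Myo7a between groups, and Ednrb and Kit among the ranks, were chosen with their values known. The members and lists were chosen with earlier results of these data known. The animals of a group are separate animals per the labels. Extraction batches are not given in them.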

Additional observations from a re-analysis of the deposited data

Results flagged for a closer look

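In 4 of 64 groups of 6 libraries examined, a single library stood apart from the other 5 of its group by more than Dixon's 95% critical value. Chance flags about 1 in 20 groups, here 3.2. Tyr in the posterior eye of young sham animal 1 was at 25.38 CPM, where the other 5 libraries lay between 58.81 and 78.27 CPM. Gpr143 in the posterior eye of aged OVX animal 20 was at 8.74 CPM, where the other 5 lay between 20.93 and 26 CPM. Mlana in the retina of aged sham animal 16 was at 2.31 CPM, where the other 5 lay between 1.02 and 1.37 CPM. Slc24a5 in the retina of aged sham animal 13 was at 26.05 CPM, where the other 5 lay between 18.46 and 20.42 CPM.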

How the results depend on the processing

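Among log2 fold changes of single melanosome genes under the alternatives other than single libraries left out, 770 kept their direction and side of the threshold, 44 changed sign and 2 newly passed. A fold change without an adjusted p, as DESeq2 gave for some retinal genes, was counted here as not passing. DESeq2 called 1 member, Mlana, in each of the retinal comparisons of young OVX against young sham and of aged OVX against young OVX, where edgeR called 0. What share of all genes DESeq2 called there is not given. Correlations with pigment epithelium markers passed within groups for 4 genes of the posterior eye and for 0 retinal genes, and by Spearman's rho rods passed for 3 genes in the retina. The causes of these changes were not tested. The animal as a replicate block, which pairs the tissues, gave 8 called members with a median tissue difference of 5.31, an interaction difference with a median of 0.71 and 0 called, and changed no call. Signs changed in these log2 fold changes. In the posterior eye, aged sham against young sham, Tyr was 0.0013 with DESeq2 scaling, 0.015 with upper-quartile scaling, 0.00076 without a filter, 0.0018 in DESeq2 and 0.0021 without animals 22 and 23. With the pigment epithelium covariate, the same comparison gave Oca2 0.14, Tyr 0.14, Mlana 0.089, Slc45a2 0.020 and Slc24a5 0.13, and aged OVX against aged sham gave Oca2 -0.11, Tyr -0.074, Slc45a2 -0.025, Slc24a5 -0.050 and Pmel -0.023. With the melanocyte covariate, young OVX against young sham gave Gpr143 -0.11, aged OVX against aged sham Oca2 -0.058 and Tyr -0.029, and aged sham against young sham Oca2 0.32, Tyr 0.29, Mlana 0.25, Slc45a2 0.14, Slc24a5 0.24, Tyrp1 0.17, Gpr143 0.062 and Pmel 0.19. It gave in aged OVX against young OVX Tyr 0.085, Mlana 0.25, Slc45a2 0.19, Slc24a5 0.10, Tyrp1 0.17, Gpr143 0.016 and Pmel 0.089, with a median of 0.096, and in the interaction Mlana 0.0024, Slc45a2 0.053 and Tyrp1 0.0066. In the retina, the pigment epithelium covariate gave Oca2 0.012, Slc24a5 -0.027 and Pmel 0.090 in aged OVX against aged sham, and Slc24a5 0.023 and Pmel -0.11 in aged sham against young sham. In aged sham against young sham limma-voom gave Tyr 0.067, and in the interaction Slc24a5 was 0.0029 in limma-voom and 0.0063 with the rod covariate. Among correlations, Gpr143 with rods in the posterior eye had rho -0.039 and r -0.028 without the 2 farthest libraries, and Oca2 0.010. In the retina, Gpr143 with pigment epithelium was -0.14 within groups, Slc45a2 with melanocyte markers -0.075 within groups and -0.028 without 2 libraries, Oca2 -0.12 within groups, Gpr143 rho -0.0035 and -0.19 within groups, and Slc45a2 with rods 0.039 without 2 libraries. With single libraries left out, 2647 such fold changes kept their direction and side and 41 changed sign. In the posterior eye, aged OVX against aged sham ran from -0.14 to 0.13 for Gpr143, -0.0083 to 0.22 for Oca2 and -0.024 to 0.19 for Tyr, and aged sham against young sham from -0.22 to 0.017 for Mlana, -0.21 to 0.086 for Oca2, -0.18 to 0.088 for Slc24a5 and -0.16 to 0.098 for Tyr. In the retina, Slc24a5 ran from -0.089 to 0.017 in aged OVX against young OVX and from -0.054 to 0.073 in the interaction, and Tyr from -0.31 to 0.27 in aged sham against young sham. The tissue difference of the interaction ran from -0.25 to 0.60 for Tyr. Low retinal counts limit the precision for Tyr, Oca2, Mlana and Gpr143.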
